A study of Mus musculus with 4 samples.

Results

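The BCL2 family genes that set survival against death in T cells were examined in CD69+DP thymocytes, CD4+CD8+ cells whose surface CD69 marks a recent TCR signal. The set held 10 of the 24421 genes in the abundance table, picked by name: *Bcl2*, *Bcl2l1* and *Mcl1* (pro-survival), *Bcl2l11*, *Bbc3*, *Pmaip1*, *Bad* and *Bid* (BH3-only), and *Bax* and *Bak1* (effectors). Cells were sorted from the thymus of C57BL/6 mice aged 6 weeks. The 2 control samples were Foxa1fl/flFoxa2fl/fl CD4Cre-, so they carried both floxed genes without Cre, and the 2 Foxa1/2cKO samples (labelled CoKO) were Foxa1fl/flFoxa2fl/fl with the CD4Cre transgene. Cre under *Cd4* control acts from the DP stage onwards, so cells at earlier stages of the mutant thymus are expected to keep both genes. No mouse contributed to more than 1 sample, and 2 animals per genotype were used in a sort.

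The BCL2 family decides whether the mitochondrial outer membrane is opened. BAX and BAK form the pores, the pro-survival proteins BCL2, BCL-XL and MCL1 hold them and the BH3-only proteins in check, and BH3-only proteins such as BIM, PUMA and NOXA free or activate the effectors. In the thymus, BCL-XL and MCL1 keep DP cells alive, BCL2 becomes more abundant as cells mature to the SP stage, and BIM is the main executioner of negative selection. Most regulation of these proteins by phosphorylation and turnover does not appear in transcript levels.

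Transcript levels were given as FPKM, reads per kilobase of gene after scaling for library depth. Whole reads could be recovered from them, and the 4 libraries held 10396875 to 14482755 reads on listed genes. *Foxa1* and *Foxa2* were listed at 0 in all 4 libraries, controls included, so they do not check the genotypes. All 10 markers listed for CD69+DP cells were detected. Their summed FPKM was 3478 and 3567 in control and 3537 and 4417 in Foxa1/2cKO. With no CD69- sample to compare, their detection does not check the sort. Markers of other cells summed to 50.3 to 104 for B cells, 21.0 to 33.6 for myeloid cells, 4.50 to 11.9 for dendritic cells, 3.18 to 4.18 for thymic epithelium and 0.608 to 2.67 for erythroid cells, with the globin genes *Hba-a1*, *Hbb-bs* and *Hbb-bt* at 0. *Alas2*, in the same erythroid list, had 18 to 56 reads, so the globin values do not show that erythroid RNA was absent. Foxa1/2cKO 2 stood apart from the other libraries. On the first principal component, with 65.2% of the variance, it scored 28.5 against -7.42, -10.2 and -11.0 in control 1, control 2 and Foxa1/2cKO 1. Its 5 cycling cell markers summed to an FPKM of 123 against 339, 356 and 396 in the same order, and its 6 mature SP markers to 209 against 277, 304 and 318. The SD over genes of the log2 difference between replicates was 0.20 in control and 0.40 in Foxa1/2cKO.

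Since the deleted factors bind forkhead motifs, the start sites of the members were searched on both strands, for TGTTTAC and for its variants TGTTTGC and, with another second letter, TATTTAC. The windows ran from 250 bases before to 50 after each RefSeq start in GRCm38.p6, the assembly of mm10, and 9 members had 15 windows among 32851. *Bcl2l1*, *Bcl2l11* and *Bbc3* each had 1 match. They are shown because the family's forkhead link in lymphocytes runs through FOXO factors, which read much the same letters and are known to act on *Bcl2l11* and *Bbc3*. Capitals mark the motif, and each stretch is written along the strand of its gene.
*Bcl2l1*, chr2:152828657-152828739, minus strand: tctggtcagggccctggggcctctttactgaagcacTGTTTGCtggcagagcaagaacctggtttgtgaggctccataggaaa
*Bcl2l11*, chr2:128125788-128125857, plus strand: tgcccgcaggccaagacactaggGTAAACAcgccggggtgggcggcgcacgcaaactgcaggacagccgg
*Bbc3*, chr7:16310054-16310140, plus strand: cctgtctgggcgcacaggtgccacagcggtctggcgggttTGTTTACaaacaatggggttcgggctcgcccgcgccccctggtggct
The starts of *Bcl2l1* and *Bbc3* with a match are alternative ones that lie inside the gene as annotated, and the motif ended 207 and 160 bases before them. In *Bcl2l11* it lay on the opposite strand, 220 bases before the first start. TGTTTAC was present in 2 of the 15 member windows and in 3.65% of all windows, TGTTTGC in 1 of 15 and in 5.07%, and TATTTAC in 0 of 15 and in 3.04%. A match of 7 letters is a description of the window and not a binding site.

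The comparison of Foxa1/2cKO with control asks whether loss of both factors at the DP stage left the cells with a different transcript balance of survival and death genes. *Mcl1* was higher in both Foxa1/2cKO samples, with a mean FPKM 19.1% above control, and *Bcl2l11*, which encodes BIM, was lower in both, with a mean 11.1% below control. *Bcl2l1* was slightly higher and *Bax* slightly lower in both. None of these differences passed the test. Of the 9 members that passed the filter on low values (an FPKM of 1 or more in 2 or more samples), 0 had an adjusted p under 0.05 in limma with Benjamini-Hochberg adjustment, where 0.00928% of the 10776 genes tested had one. An unadjusted p under 0.05 was found for 0 of 9, where 4.55% of all genes tested had one. With limma-voom on the recovered reads, 0 of 9 were called, but so were 0 of all 10776 genes, so this says nothing particular to the members.

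Both Foxa1/2cKO samples lay outside the range of the controls on the same side for 4 of the 9 tested members, 2 higher and 2 lower, where 36.7% of all genes did so (18.9% higher and 17.8% lower). The members' share was near the background. The fitted log2 fold changes ran from -0.24 to 0.25, with a median of 0.08 against 0.01 over all genes, and the median absolute value was 0.17 against 0.11. All fold changes are on the log2(FPKM + 1) scale, which understates the change of low genes. With 2 samples against 2, an exact two-sided permutation test cannot give a p under 0.333. The limma p-values rest on the spread between these samples and on a spread borrowed from all genes tested. The borrowed part carried 2.69 degrees of freedom and the gene's own 2. In sorted bulk cells, a smaller share of a cell type and less RNA per cell cannot be told apart.

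**Figure D1:**
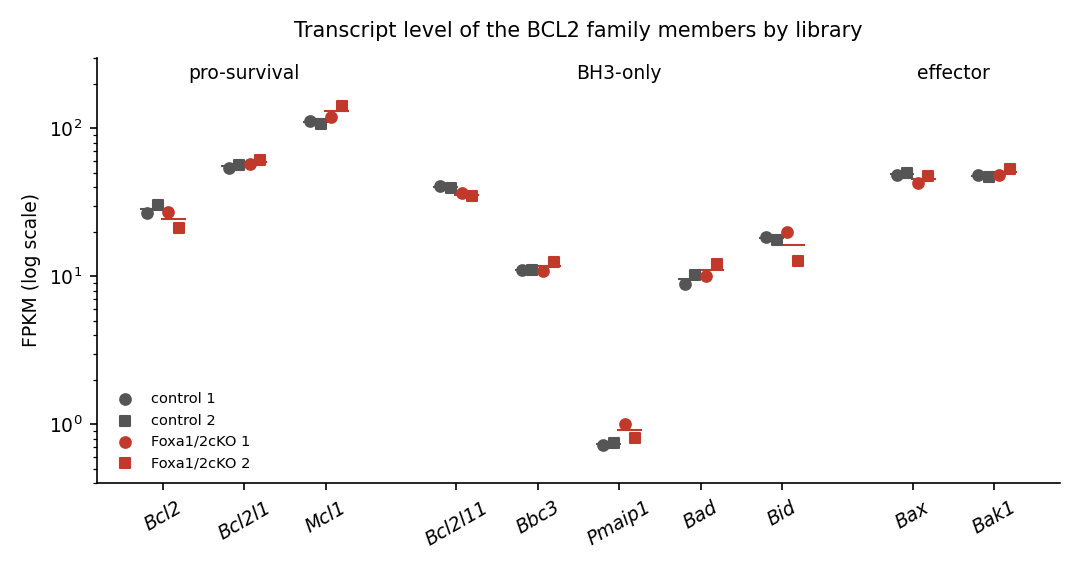
FPKM (log scale) of the 10 members in each of the 4 libraries, grouped by role, with grey symbols for control, red symbols for Foxa1/2cKO, circles for replicate 1, squares for replicate 2 and a short line at each group mean. *Mcl1* lies highest at 107 to 142 and *Pmaip1* lowest at 0.730 to 1.01, and the widest gap between replicates is that of *Bid* in Foxa1/2cKO (19.98 and 12.7).

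Among the pro-survival genes, *Mcl1* (chromosome 3, 95656944 to 95663179) encodes a short-lived protein that binds BIM and BAK. Control 1 and 2 had an FPKM of 112 and 107, and Foxa1/2cKO 1 and 2 had 119 and 142. Both mutant samples were above both controls, and Foxa1/2cKO 2 was the highest. The group means were 110 ± 3.77 for control and 130 ± 15.9 for the mutant (SD, n = 2 each). The log2 fold change was 0.25 (standard error, SE, 0.11, 95% interval -0.06 to 0.55), and its unadjusted p in limma, the smallest of the members, gave a Benjamini-Hochberg adjusted p of 0.863. The first mutant sample lay 0.12 (log2) above the control mean and the second 0.37, so most of the difference came from Foxa1/2cKO 2.

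*Bcl2* (chromosome 1, 106538176 to 106714290) encodes the founding member of the family, which rises during maturation downstream of IL-7 receptor signals. Its FPKM was 26.8 and 30.4 in control and 27.2 and 21.3 in Foxa1/2cKO. Foxa1/2cKO 1 lay between the controls and Foxa1/2cKO 2 below all other samples, so the groups overlapped. The log2 fold change was -0.24 (SE 0.15, 95% interval -0.62 to 0.15, adjusted p by limma and Benjamini-Hochberg = 0.863). The same library was low in *Il7r*, the IL-7 receptor alpha chain, with an FPKM of 13.4 against 33.7, 44.1 and 41.5, and in *Ccr7*, *Klf2*, *S1pr1* and *Itgb7*, further markers of mature SP cells. Of the 6 markers in that list, 5 had a fitted log2 fold change below 0 and 1 above, and 0 were called. The part of these cells in the *Bcl2* value was not tested. Of the *Bcl2* exon bases, 6.09% overlap a gene on the other strand, and the strand setting of the gene counts is not given in the sources used here.

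*Bcl2l1* (chromosome 2, 152758732 to 152833803), whose long product BCL-XL protects DP cells, had an FPKM of 53.7 and 56.8 in control and of 57.5 and 60.7 in Foxa1/2cKO. The mutant samples were above the controls, but by less than the gap between the controls in the case of Foxa1/2cKO 1. The log2 fold change was 0.10 (SE 0.09, 95% interval -0.13 to 0.32, adjusted p by limma and Benjamini-Hochberg = 0.866), so the fitted fold lay between 0.914 and 1.25. *Bcl2l1*, *Mcl1* and *Bcl2l11* all make shorter or longer products with other activity by alternative splicing. Values per gene do not separate them, and exon usage was not analysed here.

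Of the BH3-only genes, *Bcl2l11* (chromosome 2, 128126038 to 128162547), with the opposite-strand motif shown above, had an FPKM of 40.8 and 39.4 in control and of 36.6 and 34.7 in Foxa1/2cKO. Both mutant samples were below both controls. The means were 40.1 ± 0.984 and 35.7 ± 1.41 (SD, n = 2 each). The log2 fold change was -0.17 (SE 0.08, 95% interval -0.39 to 0.06, adjusted p by limma and Benjamini-Hochberg = 0.863). The 2 mutant samples contributed more evenly here than for *Mcl1*, at -0.13 and -0.21 (log2) from the control mean.

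*Bbc3* (chromosome 7, 16308398 to 16318334), which encodes PUMA, a p53 target, was at an FPKM of 11.0 in both controls and of 10.9 and 12.5 in the mutant samples. Its controls were nearly equal and only the last sample was higher. Its log2 fold change was 0.08 (SE 0.11, 95% interval -0.20 to 0.37), and it was -0.01 (log2) from the control mean in Foxa1/2cKO 1 and 0.18 in Foxa1/2cKO 2. *Pmaip1*, which encodes NOXA, a BH3-only protein selective for MCL1, was close to the limit of detection. It had 29, 27, 29 and 24 reads in control 1, control 2, Foxa1/2cKO 1 and Foxa1/2cKO 2, for an FPKM of 0.730, 0.749, 1.01 and 0.815. Although both mutant values were above both controls, the counting intervals overlapped widely (exact Poisson, 95%: 0.489 to 1.05 in control 1 and 0.678 to 1.45 in Foxa1/2cKO 1), so a difference of this size was not detectable at this depth. Only 1 sample reached the filter, and *Pmaip1* was therefore not in the main test. Without the filter its log2 fold change was 0.14 (SE 0.10, adjusted p by limma and Benjamini-Hochberg = 0.882).

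*Bad* (chromosome 19, 6941861 to 6951905), a growth factor-regulated sensitizer that binds BCL2 and BCL-XL, had an FPKM of 8.92 and 10.2 in control and of 10.05 and 12.1 in the mutant, so the groups overlapped. Its log2 fold change was 0.19 (SE 0.13, 95% interval -0.16 to 0.54). These values rest on 165 to 211 reads, and 20.5% of the *Bad* exon bases overlap *Gpr137* on the other strand. *Bid* (chromosome 6, 120893119 to 120917062), which caspase 8 cleaves to link death receptors to mitochondria, showed the widest spread of all members. Its FPKM was 18.3 and 17.7 in control, against 19.98 and 12.7 in the mutant samples. The 2 mutant samples fell on opposite sides of the controls, the first above both and the second below both. Their log2 gap was 0.66, against a counting SD of 0.11 for such a gap. The fitted log2 fold change was -0.17 (SE 0.22, 95% interval -0.74 to 0.41), the least certain in the set. The *Bid* exons share 17.7% of their bases with *Bcl2l13* on the other strand, and *Bcl2l13* itself was at an FPKM of 15.9, 15.2, 15.4 and 17.3 in the same order, with no low value in Foxa1/2cKO 2.

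The effectors were close to equal in level. *Bax* (chromosome 7, 45461695 to 45466903) had an FPKM of 48.5 and 49.8 in control and of 43.0 and 47.9 in Foxa1/2cKO. Both mutant samples were below the controls, Foxa1/2cKO 2 only narrowly. *Bak1* (chromosome 17, 27019812 to 27028627) was at 48.7 and 46.9 in control and at 48.1 and 53.1 in Foxa1/2cKO, so that the groups overlapped. The log2 fold change of *Bax* was -0.11 (SE 0.09, 95% interval -0.36 to 0.13) and that of *Bak1* was 0.08 (SE 0.09, 95% interval -0.16 to 0.32). *Bax* was the single member for which Foxa1/2cKO 1, not Foxa1/2cKO 2, lay farther from the control mean. Of the *Bax* exon bases, 12.2% overlap *Gm45808* on the same strand, and 25.5% of those of *Bak1* overlap *Ggnbp1* on the other strand.

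For all 9 tested members, the 95% interval left out a change of 2-fold in either direction. The widest was that of *Bid*, from 0.599-fold to 1.33-fold, followed at the low end by *Bcl2*, from 0.649-fold to 1.11-fold. The adjusted p of the 9 members ran from 0.863 to 0.896 in limma with Benjamini-Hochberg adjustment. Smaller differences than these intervals allow were not resolved with 2 samples per group.

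**Figure D2:**
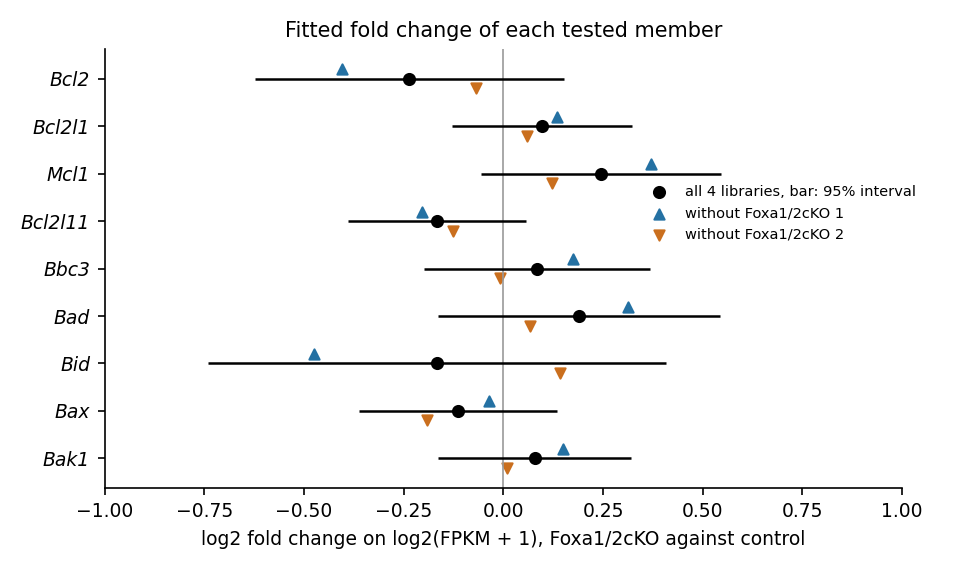
Log2 fold change of each tested member on log2(FPKM + 1), Foxa1/2cKO against control, with black points and bars for the fit of all 4 libraries and its 95% interval, blue triangles for the fit without Foxa1/2cKO 1 and orange triangles for the fit without Foxa1/2cKO 2. All 9 bars cross 0, and the triangles lie farthest apart for *Bid* (-0.47 and 0.14).

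The order of the members by level was largely the same in every library. FPKM is scaled by gene length, so levels of different genes can be set side by side. In control it ran from *Mcl1* (mean 110) through *Bcl2l1* (55.2), *Bax* (49.2), *Bak1* (47.8), *Bcl2l11* (40.1), *Bcl2* (28.6), *Bid* (18.01), *Bbc3* (11.0) and *Bad* (9.57) to *Pmaip1* (0.740). *Mcl1* was above 96.6% of the genes detected and *Pmaip1* above 31.3%. *Bax* and *Bak1* did not differ beyond the range of their samples. *Bbc3* and *Bad* were apart in control, at 11.0 in both samples against 8.92 and 10.2, but their ranges over all 4 libraries overlapped. CD69+DP cells thus held more *Bcl2l1* than *Bcl2* transcript in all 4 libraries, by a ratio of 2.00 and 1.87 in control and of 2.12 and 2.85 in Foxa1/2cKO.

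Ratios within a library do not depend on the scaling between libraries, and they are given here as a description with no test. The summed FPKM of the 3 pro-survival genes was 193 and 194 in control and 204 and 224 in Foxa1/2cKO, with *Mcl1* the largest term. The sum of the 5 BH3-only genes was 79.7 and 79.1 in control and 78.6 and 72.8 in Foxa1/2cKO. The ratio of the sums was 2.42 and 2.45 in control and higher in both mutant samples, at 2.59 and 3.07. *Mcl1* over *Bcl2l11*, a protein pair that bind each other, gave 2.75 and 2.71 in control and 3.25 and 4.09 in Foxa1/2cKO. By contrast *Bcl2* over *Bcl2l11* overlapped between the groups, at 0.656 and 0.771 in control and at 0.741 and 0.615 in Foxa1/2cKO. The effector sum also overlapped (97.2 and 96.7 against 91.0 and 101), while *Bax* over *Bak1* was 0.996 and 1.06 in control and 0.894 and 0.903 in Foxa1/2cKO. These measures reuse the values above, so they are not further evidence for them.

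The 2 mutant libraries agreed on the side of the control mean for 7 of the 9 tested members, where 53.2% of all genes tested did so, and Foxa1/2cKO 2 lay farther out for 8 of 9, where 65.1% of all genes did. *Bbc3* and *Bid* lay on opposite sides. The gap between replicates was larger in Foxa1/2cKO than in control for 9 of the 10 members, and it exceeded 2 counting SD for 5 members in Foxa1/2cKO and for 3 in control. Counting error therefore covers only part of the spread. The distances of the members in Foxa1/2cKO 2 were small beside those of the cycling and mature SP markers in the same library. *Bid*, the farthest member, was at -0.47 (log2), against -1.51 for *Top2a* and -1.46 for *Mki67*, cycling genes, and -1.46 for *Il7r*. In Foxa1/2cKO 1 these were at 0.27, 0.29 and 0.10. The part of cycling or mature cells in the values of the members was not tested.

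**Figure D3:**
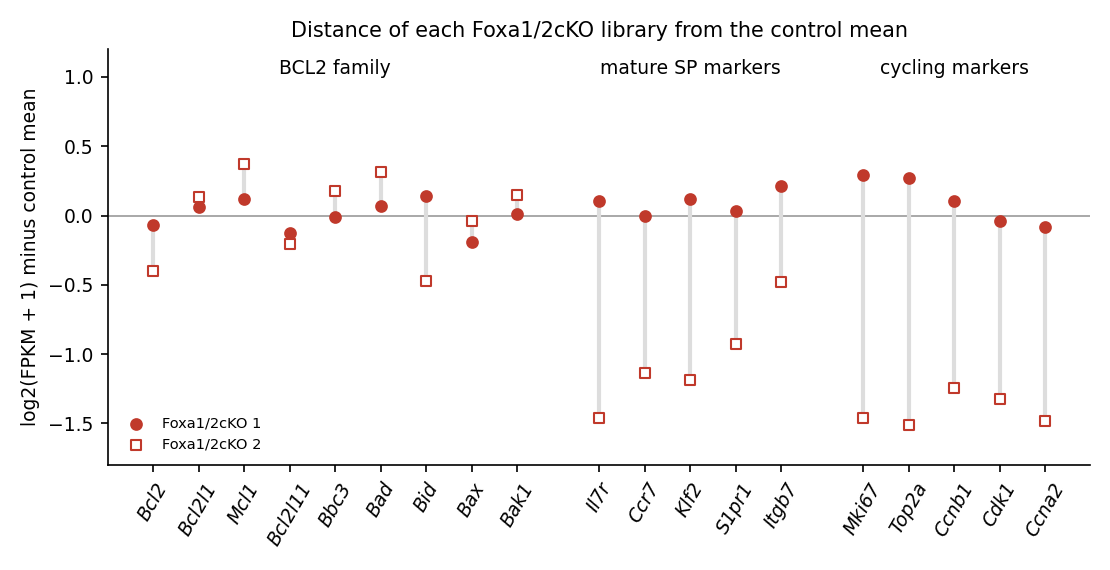
Distance of each Foxa1/2cKO library from the control mean on log2(FPKM + 1) for the 9 tested members, 5 of the 6 mature SP markers and the 5 cycling markers, with filled circles for Foxa1/2cKO 1 and open squares for Foxa1/2cKO 2 joined by a grey line. Members stay within -0.47 and 0.37 in both libraries, while the cycling markers in Foxa1/2cKO 2 lie between -1.25 and -1.51.

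Leaving out Foxa1/2cKO 1, which sets the lone outlying library against the controls and assumes that it varies as they do, gave an adjusted p under 0.05 for 3 of 9 members in limma with Benjamini-Hochberg adjustment, where 23.7% of all genes were called. They were *Mcl1* (log2 fold change 0.37, adjusted p = 0.00919), *Bid* (-0.47, adjusted p = 0.0102) and *Bcl2* (-0.40, adjusted p = 0.0269). Leaving out Foxa1/2cKO 2 instead gave 0 of 9, where 0.176% of all genes were called, with *Mcl1* at 0.12, *Bid* at 0.14 and *Bcl2* at -0.07. The calls thus rest on Foxa1/2cKO 2.

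The wider family was described by a list of 15 other genes, of which 8 passed the filter, 5 above and 3 below control in fitted log2 fold change and 0 called (median 0.07). *Bnip3l*, a mitochondrial mitophagy receptor, had an FPKM of 30.6 and 31.3 in control and of 35.4 and 42.2 in Foxa1/2cKO. *Bnip3*, its hypoxia-inducible relative, had 1.90 and 2.73 in control and 1.16 and 1.34 in Foxa1/2cKO, from 22 to 65 reads. The groups did not overlap for either gene, in opposite directions, and the log2 fold changes were 0.31 (SE 0.11) and -0.55 (SE 0.20), each with a Benjamini-Hochberg adjusted p of 0.863 in limma. *Bcl2l12* (-0.21) and the pro-survival *Bcl2l2*, which encodes BCL-W (0.11), were the next by unadjusted p. *Bcl2l10* and *Hrk* were listed at 0 in all samples, while *Bcl2a1a*, *Bik*, *Bok*, *Bcl2l14* and *Bcl2l15* were too low to be tested, with an FPKM of up to 1.05.

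Downstream of the mitochondria, all 20 genes of the apoptosome, the caspases and their inhibitors were tested, with 9 above and 11 below control, 0 called and a median log2 fold change of -0.01. *Apaf1*, the scaffold of the apoptosome, was at 12.5 and 13.01 in control and at 15.8 and 14.7 in Foxa1/2cKO, higher in both (log2 fold change 0.24, SE 0.09, adjusted p by limma and Benjamini-Hochberg = 0.863). Its partners overlapped between the groups, with *Cycs*, cytochrome c, at 9.195, 8.69, 9.66 and 8.43 and *Casp9*, the initiator caspase, at 6.10, 6.42, 5.92 and 6.22 in control 1, control 2, Foxa1/2cKO 1 and Foxa1/2cKO 2 (both named after their values were seen). *Birc2*, an inhibitor of apoptosis (0.20), and *Vdac1*, a channel of the outer membrane (-0.20), were next by unadjusted p.

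The extrinsic route starts at receptors on the cell surface. Of its 11 death receptor genes tested, 6 were above and 5 below control, 0 were called, and the log2 fold changes lay between -0.10 and 0.13. *Fas*, the receptor, was at 33.2 and 36.4 in control and at 36.2 and 40.5 in Foxa1/2cKO. *Tradd* (0.13), *Ripk1* (0.12) and *Fadd* (-0.07), its adaptors and those of the TNF receptor, completed the genes with the smallest unadjusted p.

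The p53 pathway, which induces *Bbc3*, *Pmaip1* and *Bax* after DNA damage, had 11 of 14 genes tested, 4 above and 7 below control, 0 called and a median of -0.05. *Trp53inp1*, a p53 target that promotes cell death and autophagy, had the smallest unadjusted p of the lists, with an FPKM of 112 and 106 in control and of 141 and 172 in Foxa1/2cKO, for a log2 fold change of 0.51 (SE 0.13, adjusted p by limma and Benjamini-Hochberg = 0.863). *Ccng1*, another target, was at 27.8 and 26.2 in control and at 35.3 and 30.3 in Foxa1/2cKO, whereas *Trp53* itself was at 115 and 115 in control and at 95.6 and 115 in Foxa1/2cKO. *Ppm1d*, a phosphatase that shuts off p53, was high in Foxa1/2cKO 2 alone (14.7, 13.7, 14.3 and 22.1). *Cdkn1a*, *Perp* and *Eda2r* were below the filter, at FPKM of 0.356 to 1.05, 0.142 to 0.310 and 0.

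Among 25 genes that control the expression or turnover of BCL2 family proteins, all tested, 15 were above and 10 below control, 0 were called and the median was 0.05. *Usp9x*, a deubiquitinase that stabilises MCL1, was at 15.3 and 14.8 in control and at 19.6 and 17.6 in Foxa1/2cKO, for a log2 fold change of 0.28 (SE 0.10, adjusted p by limma and Benjamini-Hochberg = 0.863). *Hif1a*, a hypoxia factor, was at 32.7 and 32.4 against 37.6 and 39.5 (0.24, SE 0.08). *Foxo3*, a forkhead activator of *Bcl2l11* and *Bbc3*, had an FPKM of 21.7 and 18.6 in control and of 22.3 and 25.7 in Foxa1/2cKO (0.24), and *Zfp36l1*, an mRNA decay factor, was at 101 and 91.8 against 91.4 and 71.7 (-0.25).

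Of the 9 TCR-induced genes linked to negative selection, one of which was *Bcl2l11*, 8 were above control and 1 was below in fitted log2 fold change. Over all 10776 genes tested, 5523 were above and 5253 below. In the list, 0 were called and the median was 0.09. *Bcl2l11* was the single gene below. Of the 8 above, only 1, *Ikzf2*, had both mutant samples above both controls, so the signs do not show a shared rise. *Ikzf2*, which encodes Helios and marks strong TCR signals, was at 26.6 and 24.2 in control against 30.6 and 38.2 in the mutant, which gave a log2 fold change of 0.41 (SE 0.14, adjusted p by limma and Benjamini-Hochberg = 0.863). *Pdcd1*, which encodes PD-1 (0.28), and *Gadd45b*, a stress gene (0.15), overlapped between the groups. Across the lists, the groups did not overlap for 3 of 8 other family genes, 6 of 20 apoptosome and caspase genes, 2 of 11 death receptor genes, 2 of 11 p53 pathway genes, 9 of 25 regulators and 2 of 9 negative selection genes, where 36.7% of all genes did not.

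**Figure D4:**
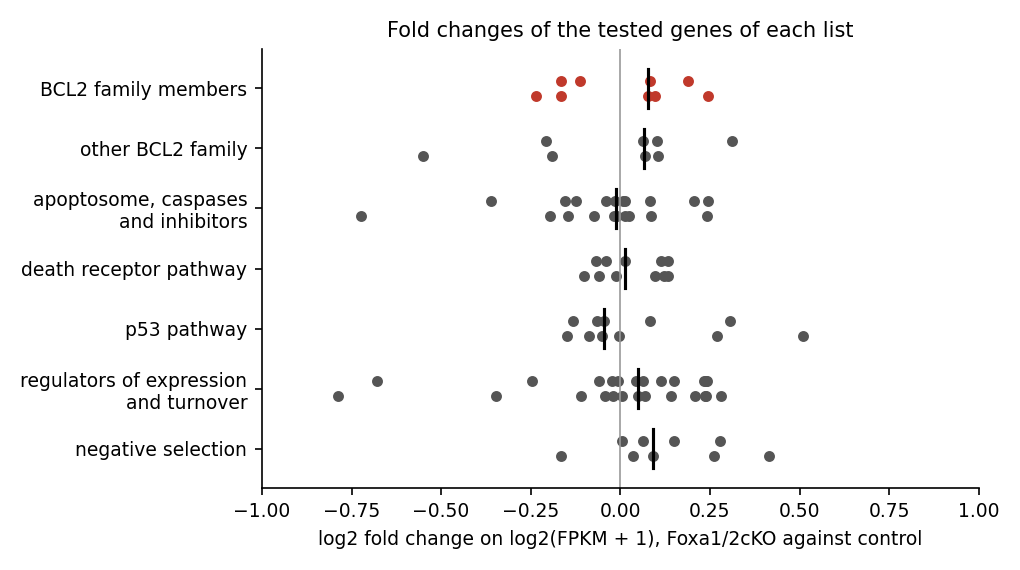
Log2 fold change on log2(FPKM + 1), Foxa1/2cKO against control, of each tested gene in the 7 lists, with red points for the members, grey points for the other lists and a vertical bar at the median of each list. The medians lie between -0.05 and 0.09, and the members span -0.24 to 0.25.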

How the data were processed

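RNA of FACS-sorted CD69+DP thymocytes was sequenced in 2 control and 2 Foxa1/2cKO samples. The authors aligned reads to mm10 with RefSeq genes in BaseSpace and used HTSeq (union mode) for counting, and the submitters' processing notes also name TopHat, Picard and DESeq2. The deposited values are FPKM per gene and sample. The step from counts to FPKM and the strand setting of the gene counts are not given in the sources used here, while the exons were counted without regard to strand. For 100% of the 16069 genes above 0, whole reads within 0.0001 were recovered from the FPKM. The implied divisors were proportional to median-of-ratios size factors (0.867 to 1.20), so the FPKM were already scaled between samples. The file turned 27 gene symbols into dates. Intervals on reads cover counting error only.

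The FPKM were tested with limma 3.58.1 (R 4.3.3) on log2(FPKM + 1), with a mean-variance trend, over all genes that reached an FPKM of 1 in 2 or more samples, and with Benjamini-Hochberg adjustment over all 10776 genes at 0.05. The fit had 2 residual and 2.69 prior degrees of freedom. The code was tested on simulated data. Members and lists were chosen with earlier results of these data known. All members are named, and of each other list the 4 genes with the smallest unadjusted p, any gene called, and those below the filter. Results of some genes under this rule are not reported here. Genes named outside this rule are said to be so or are named beside a result they touch. The alternatives were a pseudocount of 0.1, no filter, an FPKM of at least 5, upper-quartile scaling, no trend, robust moderation, a replicate block, a gene length correction with and without the block, limma-voom on recovered reads, leaving out each sample and, chosen after seeing the data, scaling to all recovered reads. The main fit did not pair the samples. Over all genes tested, same-numbered samples deviated from their group means with a correlation of -0.0587. With 2 samples per group, 1 of them outlying, this value cannot show whether they were paired, for example by a shared sort. Promoter windows came from RefSeq, and tables and plots were made in Python 3.11.15 with pandas 2.3.3, matplotlib 3.10.9, scipy 1.17.1 and numpy 2.4.6.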

Additional observations from a re-analysis of the deposited data

How the results depend on the processing

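The 9 tested members were fitted under 15 alternatives, of which 4 left out a sample. Of these 135 fitted log2 fold changes, 133 kept the direction of the fit of all 4 samples, and the exceptions came without Foxa1/2cKO 2. With a sample left out *Bbc3* ranged from -0.0087, without that sample, to 0.18, and *Bid* from -0.47 to 0.14. The number of members called stayed at 0 except without Foxa1/2cKO 1, and ranged from 0 to 3 with a sample left out. In the same way the number called ranged from 0 to 2 in the other BCL2 family genes, from 0 to 5 in the apoptosome and caspase genes, from 0 to 2 in the death receptor genes, from 0 to 2 in the p53 pathway, from 0 to 11 in the regulators and from 0 to 2 in the negative selection genes, each upper value being that without Foxa1/2cKO 1. Over all genes the 1 call became 0 with no filter, a pseudocount of 0.1, an FPKM of at least 5, upper-quartile scaling, limma-voom or scaling to all recovered reads, and with a sample left out the number ranged from 0 to 2559 (2559 without Foxa1/2cKO 1, 19 without Foxa1/2cKO 2, 0 without either control). The cause was not tested. With the replicate block, 1 gene and 0 members were called, and 378 genes had an unadjusted p under 0.05 in place of 490. The block changed no other call. Whether same-numbered samples shared a sort is not given in the sources used here, and their correlation is given with the methods. Another scaling moved the median of all genes to -0.03 (log2) at most. With 2 samples per group, differences within the intervals printed above were not resolved, and *Pmaip1*, with 24 to 29 reads per library, was limited by depth.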

Other observations

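Some genes that touch the BCL2 family lay farther from the controls in Foxa1/2cKO 2 than in Foxa1/2cKO 1. They are given as values, chosen after their values were seen. In Foxa1/2cKO 1, *Birc5* lay between the controls, and *E2f1* and *Foxo1* were narrowly below both. *Bmf* and *Cd5* were below both controls in Foxa1/2cKO 1 and above both in Foxa1/2cKO 2. *Birc5*, which encodes survivin and peaks in dividing cells, had an FPKM of 22.7 and 24.3 in control, against 23.6 and 7.97 in the mutant samples. *E2f1*, a cell cycle factor, was at 8.47 and 9.08 in control and at 8.16 and 2.50 in Foxa1/2cKO. *Foxo1*, which drives *Il7r* and *Klf2* in T cells, was at 33.0, 34.0, 32.1 and 21.2 in the same order. *Bmf*, a BH3-only gene, lay below control in one mutant sample and above it in the other, at 31.3 and 31.8 in control and at 24.7 and 44.4 in Foxa1/2cKO, a wider log2 gap than that of any member. *Cd5*, which follows TCR signal strength, was at 484 and 423 in control and at 402 and 732 in Foxa1/2cKO.

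The pro-survival *Bcl2a1* genes, which are near-identical copies that share reads, so that each value is uncertain, were not called. *Bcl2a1b* had an FPKM of 12.2, 8.39, 12.4 and 6.14 in control 1, control 2, Foxa1/2cKO 1 and Foxa1/2cKO 2, and *Bcl2a1d* had 3.69, 4.53, 6.17 and 3.17. The summed FPKM of 5 B cell markers was 75.6, 50.3, 104 and 54.0 in the same order. The part of B cell RNA in the *Bcl2a1* values was not tested. *Tcf7*, a regulator of DP cell survival, was abundant and overlapped between the groups, at 1706, 1645, 1379 and 1873.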
